A study of Mus musculus with 4 samples.

Results

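The S100A genes encode small calcium-binding proteins of the EF-hand type. Their transcripts were followed in cultured mouse calvarial cells, a mixed primary culture grown from collagenase-treated chips of the skull vault. The 9 members described are the rows named S100a1, S100a4, S100a6, S100a8, S100a9, S100a10, S100a11, S100a13 and S100a16, 9 of the 19171 genes in the deposited table. They were picked out by name, with earlier results of these data known. All 4 libraries came from C57BL/6 cells of postnatal day 10 with the genotype mir17fl/fl:106b-/-, so that both groups carried floxed alleles of the miR-17-92 cluster and lacked miR-106b-25. The comparison asks what changes when miR-17-92 is removed on that background. In 2 libraries the cells had received an adenovirus expressing Cre, the recombinase that cuts out DNA between loxP sites, and in 2 an adenovirus expressing YFP, a fluorescent protein. RNA was taken 3 days after infection, and the virus amount was set for an infection rate above 80%, so uninfected cells may remain in either culture.

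An S100 protein chain holds a pair of EF-hands, loops that take up calcium, and most of these proteins work as dimers. Calcium opens a binding face for a partner such as an annexin or a myosin chain. Some members also leave the cell and act on receptors such as Ager (RAGE) and Tlr4. In connective tissue S100a4 is widely used as a marker of fibroblast-like cells, and S100a8 and S100a9 are best known as the calprotectin pair of neutrophils and monocytes. In the mouse the S100A genes lie in a cluster on chromosome 3 beside the genes of the cornified envelope of skin.

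With Cre, 5 of the 7 members at 1 FPKM or more in both YFP libraries rose and 0 fell. Of the 11673 tested genes at that limit, 15.4% rose. Over all tested genes, 16.6% rose and 32.9% passed in either direction. The 5 members rose by 1.31-fold to 2.07-fold as ratios of mean FPKM. S100a1, a calcium-handling regulator of muscle, rose most among these 7, followed by S100a13, S100a16, S100a6 and S100a4. S100a10 and S100a11, the partners of annexins, did not pass the threshold. S100a8 went from under 1 FPKM to 1.76, while its partner S100a9 stayed below 0.2 FPKM in every library. Together the 9 members made up 1.19% ± 0.07 (SD, n = 2) of the summed FPKM with YFP and 1.46% ± 0.08 (SD, n = 2) with Cre. Most of this share is from S100a11, S100a4 and S100a6, which held 92.0% to 92.8% of the members' FPKM in each library.

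FPKM, as the authors deposited it, divides a gene's reads by its transcript length and by the library's mapped reads, so levels can be compared between genes. The number of reads behind it is unknown. Values were tested as log2(FPKM + 1) with limma, which understates the change of low genes, over the 12046 genes at 1 FPKM or more in at least 2 libraries. Calls are at an adjusted p (Benjamini-Hochberg) under 0.05, two-sided. The labels do not say whether replicates were separate cultures or animals, and the p-values then describe only the spread of these 4 libraries, which may be technical. The groups differ in the virus insert as well as in the deletion, and these cannot be told apart.

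Summed FPKM lay between 458756 and 471021 per library. Of all tested genes, 32.9% passed, 16.6% higher with Cre and 16.3% lower, so a call alone sets no gene apart. Mir17hg, the host transcript of miR-17-92, was at 3.29 and 3.91 FPKM with YFP and 7.35 and 8.49 with Cre, higher by 0.96 on the log2 scale, and 0 of the 9 miRNA genes of both clusters are listed in the table. That transcript value does not measure the mature miRNAs and so does not check the deletion. Of the bone markers, Col1a1 (1684 to 1778 FPKM) and Spp1 (3126 to 3919 FPKM) were abundant and Runx2 lay between 10.3 and 12.1 FPKM. Ibsp was under 0.7 FPKM, and Bglap was listed at 0 in both YFP libraries and at 1.27 and 0.91 FPKM with Cre.

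The miRNAs of the floxed cluster are shown because targets are usually recognised through their seeds. The mature miRNAs of the miR-17-92 seed families follow, from RefSeq on GRCm38.p6, with the seed (bases 2 to 8) in capitals.
mmu-miR-17-5p: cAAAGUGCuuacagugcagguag
mmu-miR-18a-5p: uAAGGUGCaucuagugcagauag
mmu-miR-19b-3p: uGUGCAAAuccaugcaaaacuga
mmu-miR-92a-3p: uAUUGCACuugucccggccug
Of the 11475 tested genes with an annotated 3′ UTR (the longest in GENCODE M21), 14.1% hold GCACTTT, which pairs with the seed of miR-17, and 8.71% hold GCACCTT, which pairs with that of miR-18a. The match to miR-19b, TTTGCAC, occurs in 12.8% and the match to miR-92a, GTGCAAT, in 7.19%. In the 3′ UTRs of the 9 members, none of the 4 occurs, which says only that these letters are not in these windows. The members' 3′ UTRs are short, with a median of 140 nt and a range of 68 nt for S100a8 to 565 nt for S100a16, beside a median of 1087 nt over the tested genes.

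The most abundant members were those that act inside the cell on the cytoskeleton and on membranes. S100a11, a partner of annexin A1, was at 2639 and 3123 FPKM with YFP and 3193 and 3579 FPKM with Cre, and it ranked 4 among all genes of the table by mean level. S100a4, which binds non-muscle myosin, ranked 27, S100a6, also called calcyclin, ranked 49, and S100a10, the light chain of the annexin A2 complex, ranked 198. With either virus the order of levels was S100a11, S100a4, S100a6 and S100a10, and no neighbouring pair in it overlapped between libraries of a group. S100a13, S100a1 and S100a16 lay an order of magnitude lower. With YFP, S100a13 and S100a1 overlapped in level, while with Cre S100a1 was above S100a13 in both libraries. S100a8 and S100a9 lay at the bottom of the order in both groups.

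**Figure D1:**
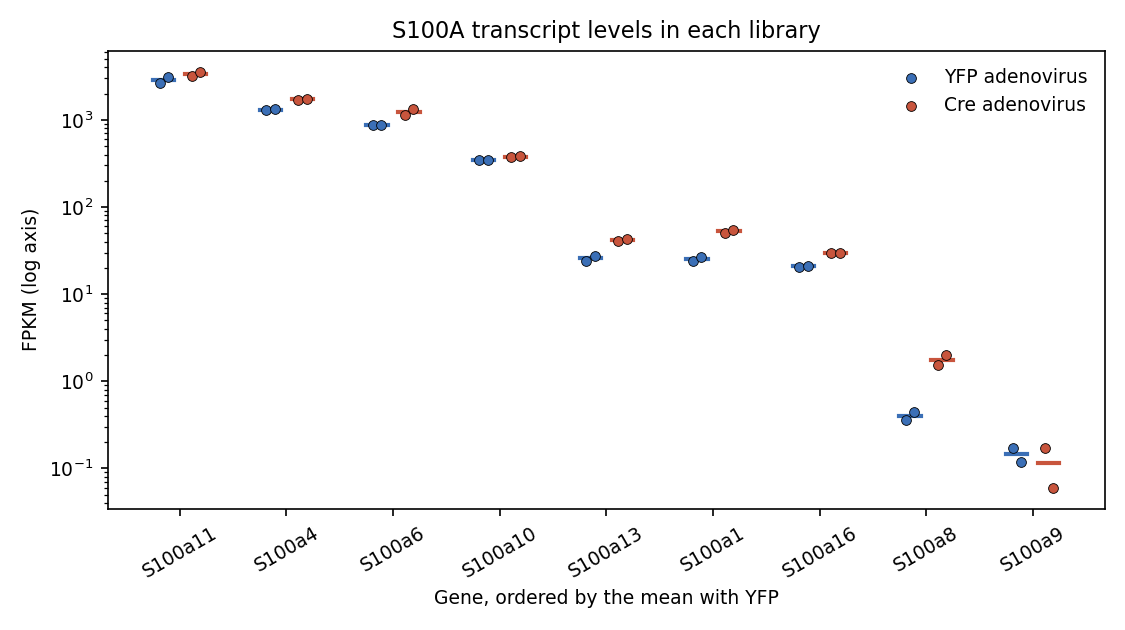
FPKM of each S100A gene (log axis) in the 2 YFP and 2 Cre libraries, with points for libraries and bars for group means. The 9 genes span from 0.06 FPKM for S100a9 to 3579 FPKM for S100a11, and the Cre points lie above the YFP points for every gene but S100a9. Of all tested genes, 31.5% had both Cre values above both YFP values, and S100a8 entered the test only through its Cre values.

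S100a4 was at 1291 and 1325 FPKM with YFP and at 1687 and 1738 FPKM with Cre. The groups did not overlap, and the libraries of a group lay close together. The means of 1308 ± 25 and 1712 ± 36 FPKM (SD, n = 2) give a ratio of 1.31, and the log2 change was 0.39 (SE 0.05, limma adjusted p = 1.79e-04). Among all tested genes, 6.24% had a log2 change at least as high. S100a4 is also known as fibroblast-specific protein, although several cell types express it.

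S100a6, which binds the calcyclin-binding protein encoded by Cacybp, was at 879.7 and 879 FPKM with YFP and at 1133 and 1333 FPKM with Cre. Both Cre libraries were above both YFP libraries, and Cre replicate 2 was the highest. The ratio of means was 1.40 and the log2 change 0.48 (SE 0.07, limma adjusted p = 0.0011). Its change lay between 0.37 without Cre replicate 2 and 0.60 without Cre replicate 1, past the threshold in both. The ratio of S100a4 to S100a6 within a library was 1.47 and 1.51 with YFP and 1.49 and 1.30 with Cre. An exact two-sided permutation test of that ratio on the log scale gave p = 0.667, where 2 libraries against 2 cannot go below 0.333.

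S100a10 and S100a11 were the members tested that did not pass. S100a10, which forms a complex with annexin A2 without needing calcium, was at 346.6 and 347.1 FPKM with YFP and at 369.97 and 386 FPKM with Cre. Both Cre values were above both YFP values, with a ratio of means of 1.09 and a log2 change of 0.12 (95% interval 0.02 to 0.23, limma adjusted p = 0.064). It passed with median-of-ratios scaling (log2 change 0.13, limma adjusted p = 0.0484).

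For S100a11 the log2 change was 0.24 (95% interval 0.02 to 0.45, limma adjusted p = 0.0913), with means of 2881 ± 343 and 3386 ± 273 FPKM (SD, n = 2). The spread within each group was wide, and the gap between YFP replicate 2 and Cre replicate 1 was small. Its change was 0.36 and past the threshold without YFP replicate 2 (limma adjusted p = 0.0037), and 0.11 without YFP replicate 1 (adjusted p = 0.267). It also passed in limma with a replicate block (adjusted p = 0.0094), although the labels do not say whether the replicate numbers pair these libraries. The mouse genome holds a processed copy of this gene, S100a11-ps, and how the authors' counting treated reads that fit both is not given in the sources used here.

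S100a1 and S100a13, of moderate level, had the largest changes among the 7 members at 1 FPKM or more in both YFP libraries. S100a1, known in muscle for binding the ryanodine receptor and the calcium pump of the sarcoplasmic reticulum, was at 24.0 and 26.6 FPKM with YFP and at 50.9 and 53.9 FPKM with Cre. The groups were far apart, with a ratio of means of 2.07, a log2 change of 1.02 (SE 0.06, 95% interval 0.90 to 1.15) and a limma adjusted p of 9.95e-07. Only 0.672% of tested genes had a log2 change at least as high.

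S100a13, which helps release FGF1 from cells by a route outside the classical secretory pathway, was at 24.3 and 27.7 FPKM with YFP and at 40.5 and 42.9 FPKM with Cre. The ratio of means was 1.60 and the log2 change 0.66 (SE 0.06, limma adjusted p = 4.86e-05). The ratio of S100a1 to S100a13 within a library was 0.99 and 0.96 with YFP and 1.26 in both Cre libraries. The ratio was thus higher in both Cre libraries (exact two-sided permutation p = 0.333, the smallest that 2 against 2 allows).

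S100a16, a widely expressed member, was at 20.7 and 21.1 FPKM with YFP and at 29.7 and 29.4 FPKM with Cre. Both Cre values were above both YFP values. The ratio of means was 1.41 and the log2 change 0.48 (SE 0.05, limma adjusted p = 3.43e-05). S100a1, S100a4, S100a6, S100a13 and S100a16 passed the threshold in each of the 11 alternative settings.

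All 7 of these members had both Cre values above both YFP values, as did 30.1% of the 11673 tested genes at 1 FPKM or more in both YFP libraries. Of those 7, 5 (S100a1, S100a4, S100a6, S100a13 and S100a16) were called higher, beside 15.4% of the same 11673 genes. Their median log2 change was 0.48, beside -0.02 over those genes. Since RNA came from whole cultures, a change in the share of the cells that express a gene and a change per cell cannot be told apart.

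**Figure D2:**
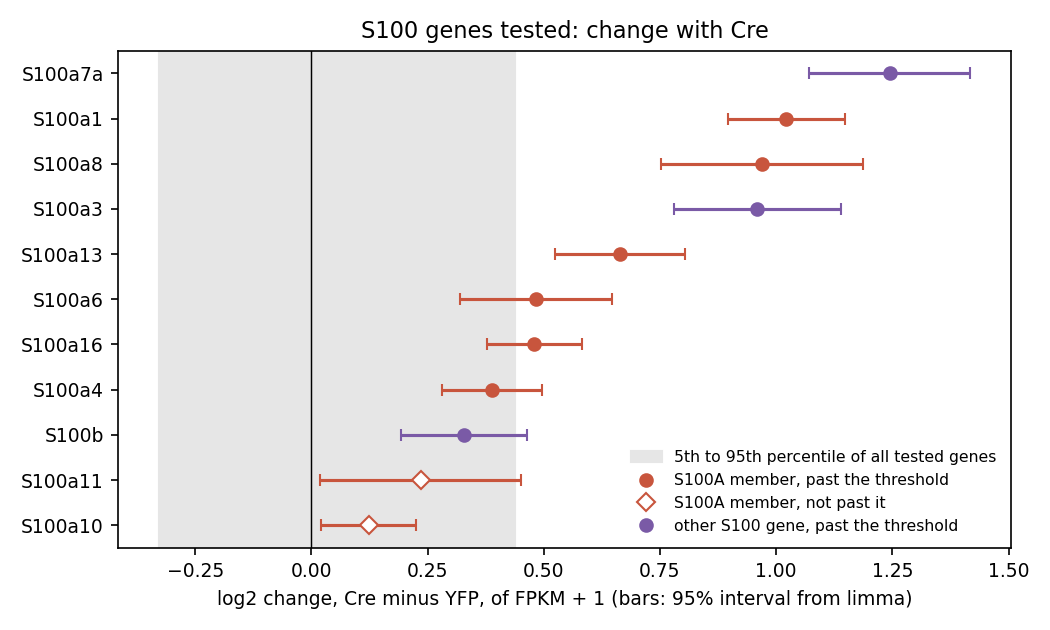
Log2 change (Cre minus YFP, FPKM + 1) with 95% intervals from limma for the 8 tested S100A members and 3 other tested S100 genes; the grey band runs from the 5th to the 95th percentile of all tested genes, -0.33 to 0.44. S100a1 stands highest among the members at 1.02, and S100a10 and S100a11 (open diamonds) lie inside the band at 0.12 and 0.24.

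The myeloid pair stood apart from the rest in level. S100a8 was at 0.36 and 0.45 FPKM with YFP and at 1.54 and 1.98 FPKM with Cre, a ratio of means of 4.35. It entered the test only through its Cre values, so it had to differ, and its log2 change of 0.97 (limma adjusted p = 4.56e-05) is given as a description. With a pseudocount of 0.1 that change was 1.88. S100a9 was at 0.17 and 0.12 FPKM with YFP and at 0.17 and 0.06 FPKM with Cre, overlapping between groups and below the filter, with an adjusted p of 0.679 in limma with no filter. S100a8 was therefore above S100a9 in all 4 libraries, and the gap between them was wider in both Cre libraries.

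Markers of macrophages and of neutrophils were measured beside this pair. Of 10 tested macrophage markers, 6 rose and 0 fell, where 16.6% of all tested genes rose and 16.3% fell. The summed level of the 13 macrophage markers in the table was 106 to 108 FPKM with YFP and 139 to 149 with Cre, most of it from Lyz2. The 6 were Lyz2, Csf1r, Itgam, Tyrobp, Laptm5 and Fcer1g. Tyrobp went from a mean of 4.37 to 6.01 FPKM and Fcer1g from 5.61 to 8.30. Cd68 had means of 7.58 and 12.7 FPKM (limma adjusted p = 0.0552), and C1qb of 2.42 and 2.23, and neither passed. Adgre1 (listed as Emr1) and Ptprc, markers of macrophages and of leukocytes, stayed under 1 FPKM in every library. Of the 11 neutrophil markers in the table, 9 were too low to test, and Ngp, Camp, Ltf, Mpo, Elane and Retnlg were each at or below 0.14 FPKM in all 4 libraries. The sum of the 11 was 5.61 and 7.5 FPKM with YFP and 8.58 and 11.6 with Cre, and of the 2 tested, Mmp9 was called higher but entered through its Cre values, and Cxcr2 did not pass. Lcn2 was at 0.92 and 0.97 FPKM with YFP and at 0.51 and 3.16 with Cre, and Mmp8 had means of 0.34 and 0.815 FPKM. With no filter, 3 of the 11 neutrophil markers were called higher, as were 1960 of all 19171 genes. The part of such cells in the level of S100a8 was not tested.

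Of 8 other S100 genes listed, 7 are in the table and 3 were tested. All 3 were called higher. Of these, S100a3 and S100b were at 1 FPKM or more in both YFP libraries, a limit at which 15.4% of tested genes were called higher. S100a3, a gene of hair and skin, was at 1.53 and 1.84 FPKM with YFP and at 4.06 and 4.37 with Cre (log2 change 0.96, limma adjusted p = 1.47e-05). S100b, the glial member, went from 5.49 ± 0.04 to 7.16 ± 0.23 FPKM (SD, n = 2), with a log2 change of 0.33 (limma adjusted p = 0.0022). Beside it, 4 of 5 tested glial markers were called higher, against 16.6% of all tested genes. The summed level of the 7 glial markers in the table was 42.0 to 42.5 FPKM with YFP and 54.1 to 56.3 with Cre. Gfap was at or below 0.12 FPKM. Without Cre replicate 2, 1 glial marker passed. S100a7a, a relative of the human psoriasin gene, had YFP values of 0.92 and 1.09 FPKM and Cre values of 3.71 and 3.78, and it too entered the test through its Cre values. The part of glial cells in S100b was not tested.

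In their order along chromosome 3 (RefSeq, GRCm38.p6), the S100A genes form a run of 12 from S100a1 to S100a9, and S100a11 and S100a10 lie apart at the far side of the cornified envelope genes. This grouping was made after the values were seen. In the run of 12, 8 were tested and all 8 were called higher, but S100a7a and S100a8 entered the test through their Cre values. At 1 FPKM or more in both YFP libraries there were 6 (S100a1, S100a13, S100a16, S100a3, S100a4 and S100a6), and these 6 all rose, beside 15.4% of genes that met the same limit. Among the 8 protein-coding genes just before the run, 7 were tested, and 0 rose and 2 fell. Over all tested genes, 16.6% rose and 16.3% fell. Snapin fell by 0.23 and Dennd4b by 0.26 on the log2 scale. The call of Dennd4b was lost in 4 alternatives (limma adjusted p = 0.0545 to 0.154) and that of Snapin without Cre replicate 2 (adjusted p = 0.051).

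Of the 55 other genes between S100a9 and S100a11, 35 are in the table and 6 were tested. Sprr1a, Ivl and Lce1g, which encode proteins of the cornified envelope, rose by 0.49, 1.06 and 1.19 on the log2 scale. Ivl and Lce1g were not at 1 FPKM or more in both YFP libraries, and in all 3 the Cre mean was under 4 FPKM. Of the 6 tested, 3 rose and 1 fell, where 16.6% of all tested genes rose and 16.3% fell. At 1 FPKM or more in both YFP libraries there were 4, and 1 of them rose, beside 15.4% of genes that met the same limit. Crct1 fell by 0.31, a call lost in 4 alternatives (limma adjusted p = 0.0551 to 0.162). Sprr2k and Lce1h did not pass. Epithelial markers were measured beside these genes. Of 6 tested, 6 were called higher, but Krt8, Krt18 and Dsp entered the test through their Cre values. The 3 at 1 FPKM or more in both YFP libraries (Krt7, Krt19 and Sfn) all rose, beside 15.4% of genes that met the same limit. The sums over the 10 in the table were 23.0 and 23.1 FPKM with YFP and 47.4 and 54.9 FPKM with Cre. Krt18 was at 0.96 and 0.91 FPKM with YFP and at 8.54 and 9.38 with Cre, the largest log2 change of all tested genes (2.36). Krt7 was at 1.19 and 1.3 FPKM with YFP and at 4.74 and 5.7 with Cre. Dsp went from a mean of 0.335 to 1.97 FPKM and Sfn from 9.77 to 19.9 FPKM. Below the filter, Krt5 had means of 0.01 and 0.14 FPKM, Cdh1 of 0.175 and 0.455 and Epcam of 0.155 and 0.395, with both Cre values above both YFP values in each, and Krt14 was at or below 0.03 FPKM. The part of epithelial cells in the S100A levels was not tested.

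The starts of S100a1 and S100a13 face away from each other on opposite strands and are 105 bases apart in RefSeq. Transcripts from these starts do not overlap, but the RefSeq extent of the S100a13 gene begins further upstream and reaches into S100a1. The use of strand in the authors' counting is not given in the sources used here, so reads from the overlap could have gone to either gene. The window from 250 bases before to 50 bases after the S100a13 start is shown because both genes rose, with the 204 bases that also belong to the same window of S100a1 in capitals (GRCm38.p6, chr3:90514185-90514484, plus strand).
S100a13: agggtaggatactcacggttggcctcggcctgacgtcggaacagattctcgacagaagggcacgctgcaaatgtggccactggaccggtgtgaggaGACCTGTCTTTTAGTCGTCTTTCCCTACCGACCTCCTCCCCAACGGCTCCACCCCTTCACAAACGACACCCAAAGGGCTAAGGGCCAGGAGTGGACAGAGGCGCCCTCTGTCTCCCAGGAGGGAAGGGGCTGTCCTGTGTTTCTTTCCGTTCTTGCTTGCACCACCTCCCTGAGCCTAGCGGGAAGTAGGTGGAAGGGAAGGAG
Neither window holds the TATA box TATAAA, the GC box GGGCGG, the AP-1 motif TGANTCA, the E-box CACGTG or the core of the interferon-stimulated element, on either strand.

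RefSeq windows of that length were found for 8 of the 9 members, and for S100a10 none was matched. The windows of S100a4 and S100a11 are shown as those of the 2 most abundant members, with motifs in capitals (GRCm38.p6, plus strand, chr3:90603520-90603819 and chr3:93520246-93520545).
S100a4: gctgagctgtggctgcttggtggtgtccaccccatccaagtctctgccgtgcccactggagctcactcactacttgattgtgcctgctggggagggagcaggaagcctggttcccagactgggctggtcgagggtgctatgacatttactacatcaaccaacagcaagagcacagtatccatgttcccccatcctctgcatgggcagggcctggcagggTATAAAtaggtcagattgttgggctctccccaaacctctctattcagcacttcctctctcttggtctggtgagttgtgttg
S100a11: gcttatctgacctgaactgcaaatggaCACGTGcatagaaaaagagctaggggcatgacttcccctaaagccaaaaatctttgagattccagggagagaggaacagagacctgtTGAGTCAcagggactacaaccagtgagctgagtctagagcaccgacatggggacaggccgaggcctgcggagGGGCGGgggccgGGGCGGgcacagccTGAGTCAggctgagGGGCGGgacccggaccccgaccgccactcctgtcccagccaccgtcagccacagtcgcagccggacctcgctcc
S100a4 holds TATAAA 31 bases before its start, and S100a8 holds it 30 bases before. S100a11 holds GGGCGG 3 times, TGANTCA 2 times and CACGTG 1 time. S100a16, which was called higher, holds GGGCGG and TGANTCA in 1 of its 2 windows, and S100a9, which was not tested, holds TATAAA at its start and GGGCGG. S100a6 holds CACGTG after its start. Over all 32851 RefSeq windows of this length, 13.6% hold TATAAA, 35.7% GGGCGG, 7.81% TGANTCA, 7.15% CACGTG and 3.44% the interferon-stimulated element core. These matches are a description of the letters and not of binding.

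Genes for partners and receptors of S100 proteins went both ways, and 32.9% of all tested genes passed in either direction. Of 9 tested annexins, 3 rose and 1 fell, and their median log2 change was 0.04, beside -0.01 over all tested genes. Anxa8 rose from 59.2 ± 0.4 to 73.7 ± 1.4 FPKM (SD, n = 2; log2 change 0.31, limma adjusted p = 3.96e-04) and Anxa4 fell by 0.20 on the log2 scale, a call lost without Cre replicate 2 (limma adjusted p = 0.0795). Anxa2, the partner of S100a10, was at 789 ± 50 and 811 ± 7 FPKM (limma adjusted p = 0.601). The calls of Anxa1 (log2 change 0.16), the partner of S100a11, and of Anxa3 (0.13) were lost in 3 and 7 alternatives, with adjusted p up to 0.222 and 0.324.

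Of 9 tested intracellular partners, 1 rose and 1 fell (median -0.02). Cyba, a subunit of the NADPH oxidase to which the calprotectin pair delivers arachidonic acid in human phagocytes, rose by 0.31, and Ppfibp1, a liprin that binds S100a4, fell by 0.20, a call lost without Cre replicate 2 (limma adjusted p = 0.109). Myh9, the myosin chain bound by S100a4, was at 283 ± 11 and 269 ± 0.25 FPKM (SD, n = 2; limma adjusted p = 0.304). Of 7 tested receptors, 2 rose and 1 fell (median 0.09). Mcam rose from 24.8 ± 0.06 to 33.6 ± 0.45 FPKM (limma adjusted p = 6.77e-05), Bsg rose by 0.20 and Alcam fell by 0.34 on the log2 scale, and the count of rises was 1 without either Cre library, as Bsg no longer passed. Tlr4 was at 4.32 ± 0.01 and 4.25 ± 0.01 FPKM (limma adjusted p = 0.861), and Ager was below 1 FPKM in every library and not tested.

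EF-hand proteins of other families were followed for comparison. Of 22 tested, 7 rose and 0 fell, where 16.6% of all tested genes rose and 16.3% fell. The log2 changes of the 22 ran from -0.10 to 0.37 around a median of 0.09. The count of rises was 1 without Cre replicate 2, 3 without Cre replicate 1 and 4 without YFP replicate 2. The 4 with the smallest p were Nucb1 (log2 change 0.24), Capn1 (0.30), Ncs1 (0.24) and Efhd2 (0.19), which encode nucleobindin, a calpain protease, a neuronal calcium sensor and swiprosin.

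**Figure D3:**
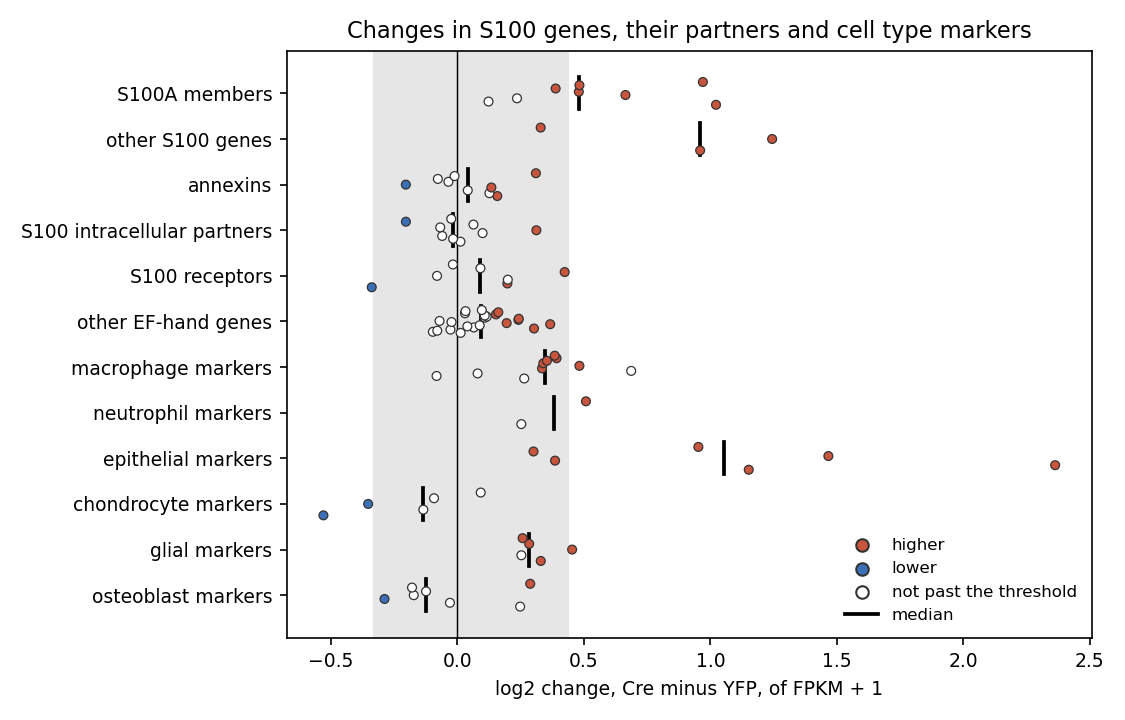
Log2 change (Cre minus YFP, FPKM + 1) of each tested gene in the S100, partner, receptor, EF-hand and marker lists, with bars for list medians and the grey band for the 5th to 95th percentile of all tested genes. The S100 lists and the epithelial markers have medians of 0.48, 0.96 and 1.05, or 0.48, 0.64 and 0.95 over genes at 1 FPKM or more in both YFP libraries, and the annexins, partners and receptors have medians of -0.02 to 0.09.

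The pattern of S100a1, the member with the largest change on the log2(FPKM + 1) scale, was compared with those of all other tested genes. By Euclidean distance over the 4 libraries, on log2(FPKM + 1) centred on the YFP mean, the nearest were Tnfrsf23 (distance 0.04), Cd24a (0.05), Cystm1 (0.05), Mcpt8 (0.07) and Slfn2 (0.09). Tnfrsf23, a decoy receptor gene for TRAIL, went from 40.3 ± 2.6 to 81.4 ± 2.3 FPKM (SD, n = 2), and Cd24a, a surface glycoprotein gene, from 23.9 ± 2.2 to 50.6 ± 2.8. With 4 libraries in 2 groups, such a match says only that the size of the change and the order within groups were alike.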

How the data were processed

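Polyadenylated RNA of 4 libraries (2 Cre, 2 YFP) was sequenced on the BGISEQ-500 with single-end reads, per the labels' protocols. The authors deposited FPKM values for 19171 genes, 1 column per library, assigned through the number in its name. Per the submitters' processing notes, Bowtie 02.2.5 and the build mm8 were used. Which program computed FPKM, on which annotation and with which strand setting is not given in the sources used here. Depth is therefore unknown and counting intervals were not computed.

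Genes at 1 FPKM or more in at least 2 libraries (12046) were compared as log2(FPKM + 1) with limma 3.58.1 (R 4.3.3; trend and robust), adjusted over all of them, a procedure tested on simulated data. Genes were matched to lists by symbol or Entrez identifier. GENCODE M21 and RefSeq (GRCm38.p6) gave UTRs, promoters and gene order, and no coordinate was joined to mm8. Transcript length and GC were found for 97.8% of genes.

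Named genes are all members and up to 4 genes per list with the smallest p. The 5 genes nearest to the member with the largest change are named too. Anxa2, Myh9, Tlr4, Ager, neighbours and further cell type markers, low or not, were added after their values were seen. Members and lists were chosen with earlier results of these data known.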

Additional observations from a re-analysis of the deposited data

Results flagged for a closer look

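S100 genes below the filter on low values, and so outside the comparison, were higher in both Cre libraries than in either YFP library in 3 cases. S100a2 and S100a9, also below the filter, overlapped between groups. S100g, which encodes an intestinal calcium-binding protein, was at 0.12 and 0.24 FPKM with YFP and at 0.53 and 0.82 with Cre (mean 0.675 with Cre), and it passed in limma with no filter (log2 change 0.50, adjusted p = 0.0206). S100a14 had a mean of 0.045 FPKM with YFP and 0.19 with Cre and also passed with no filter (adjusted p = 0.0311). S100a5 had means of 0.395 and 0.69 FPKM and did not pass (limma adjusted p = 0.133). In that fit, 1960 of all 19171 genes were called higher, so a call there sets no gene apart. Levels this low rest on few reads. Of all 19171 genes, 17452 and 17445 were above 0 FPKM with YFP and 17952 and 17891 with Cre. The share of all genes below the filter with both Cre values higher was not computed.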

How the results depend on the processing

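Of the members, 6 were called higher (S100a8 included) and 5 to 7 in the 11 alternatives, and 0 were called lower in any. S100a10 passed only with median-of-ratios scaling, and S100a11 only without YFP replicate 2 and with a replicate block. Over all tested genes, 1998 rose and 1963 fell. Leaving out 1 library gave 1058 to 1878 rises and 814 to 1698 falls, lowest without Cre replicate 2. In the lists other than the members, 35 genes rose and 7 fell, against 21 to 33 and 3 to 10 with 1 library left out. With 1 library left out, the lone library of a group is assumed to vary like the other group. With a replicate block, 1851 genes rose and 1682 fell. The deviations of same-numbered libraries correlated at r = -0.03 across genes. That value shows no shared deviation over all genes, but it cannot tell whether same-numbered libraries came from the same culture or animal. Rises against falls moved from 1998 and 1963 to 1960 and 1439 with no filter, to 1453 and 1579 with a minimum mean of 5 FPKM and to 2026 and 1577 with the length and GC trend removed. Among named genes that did not pass, Ilf2 changed sign with median-of-ratios scaling (log2 change 0.0054), with the length and GC trend removed (0.030) and between libraries left out (-0.033 to 0.023). With 1 library left out, Lpl ranged from -0.24 (past the threshold) to 0.0065 and Lce1h from -0.10 to 0.47 (past the threshold). The cause was not tested. With 2 libraries a group, only changes larger than the spread between them could be called.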

Other observations

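Lists of bone and other cell types not described above are given beside the 32.9% of all tested genes that passed in either direction. Of 7 tested osteoblast markers, 1 rose (Spp1, log2 change 0.29) and 1 fell (Col1a2, -0.29, lost without Cre replicate 2, limma adjusted p = 0.0618). Of 5 tested chondrocyte markers, 0 rose and 2 fell, Acan by 0.53 and Col9a1 by 0.35 on the log2 scale, the latter lost without either Cre library. Adipocyte markers gave 1 rise (Fabp4, 0.44) and 1 fall (Pparg, -0.41) of 3 tested, and endothelial markers 0 calls of 2 tested. The fused-type S100 genes of skin had 2 of 7 in the table, Tchh and Tchhl1, both under 1 FPKM.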
